A study of Mus musculus with 12 samples.

Results

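The MHC class I presentation genes measured here were H2-K1, H2-D1, H2-T23, H2-Q7, B2m, Tap1, Tap2, Tapbp, Nlrc5 and Erap1, taken by gene name from the gene table of each library. All 10 were present among the 41457 genes of the tables, and all 10 passed the filter on low counts in every comparison. The genes were read in regulatory T cells (Tregs) sorted from mouse spleen as CD4+ cells carrying a red fluorescent reporter, and the question was how deletion of the beta2 integrin CD18 (gene Itgb2) in Tregs and activation in culture changed their transcriptome. CD18Foxp3 Tregs came from CD18fl/fl mice with Cre from the Foxp3 locus, so that CD18 was deleted in cells expressing Foxp3, and CD18wt Tregs came from littermates with the wild-type CD18 allele. Both genotypes carried the Foxp3Cre allele and the Rosa26 reporter. Both were cultured overnight with IL-2, either without further stimulus (unstimulated) or with anti-CD3 and anti-CD28 antibodies (stimulated), which gave 4 groups of 3 libraries. The labels call the 3 libraries of a group biological replicates and the study plots them as single mice, so the p-values measure the spread between mice. The ages of these mice, and whether the unstimulated and stimulated libraries of 1 number came from the same mouse, were not given in the sources used here.

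MHC class I molecules display peptides from inside the cell to CD8+ T cells, and NK cells also sense class I molecules. A heavy chain (H2-K1 and H2-D1 are the classical ones) pairs with the light chain beta2-microglobulin (B2m) in the endoplasmic reticulum. Peptides made by the proteasome are pumped in by the Tap1 and Tap2 transporter, trimmed by the aminopeptidase Erap1 and loaded with the help of tapasin (Tapbp). The promoters of the classical heavy chain genes and B2m are known to be driven by NF-kB, by interferon regulatory factors (IRF) and by the SXY module. The RFX, CREB/ATF and NF-Y factors bind to this module, and Nlrc5 is recruited to it as the class I transactivator.

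The promoters are shown because class I genes are known to share regulatory elements. The RefSeq promoter table (GRCm38.p6) held a row for 8 of the 10 genes, all but Tap2 and Nlrc5. In the 250 bases before the RefSeq start, both strands were searched for a Y box (CCAAT), an IRF element (AANNGAAA), an NF-kB-type site (GGGNNTTNCC) and a CRE half-site (TGACG, part of the X2 box of the SXY module). The capitals below mark every match to any of the 4 motifs, on either strand and 5′ to 3′ along the gene. The first 4 windows hold all 4 motifs, and those of Tap1 and Tapbp are given as windows with fewer of them. The RefSeq start used lay within 14 bases of the start of the gene as deposited for H2-K1, H2-Q7, B2m and Tap1, but inside the gene for H2-T23 (by 154 bases), Erap1 (285), H2-D1 (364) and Tapbp (3579), so these windows are not those of the outermost start.
H2-K1 (chr17:34000348-34000597, minus strand): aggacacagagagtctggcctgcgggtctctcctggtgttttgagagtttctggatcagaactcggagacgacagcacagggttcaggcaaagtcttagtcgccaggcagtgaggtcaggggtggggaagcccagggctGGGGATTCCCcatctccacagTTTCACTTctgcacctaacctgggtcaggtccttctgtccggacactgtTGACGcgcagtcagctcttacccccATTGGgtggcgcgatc
H2-D1 (chr17:35262844-35263093, plus strand): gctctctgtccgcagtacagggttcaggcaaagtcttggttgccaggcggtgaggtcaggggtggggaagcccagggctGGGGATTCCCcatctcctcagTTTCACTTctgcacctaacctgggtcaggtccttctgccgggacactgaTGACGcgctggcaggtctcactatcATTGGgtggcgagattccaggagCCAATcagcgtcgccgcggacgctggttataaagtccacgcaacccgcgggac
H2-Q7 (chr17:35438905-35439154, plus strand): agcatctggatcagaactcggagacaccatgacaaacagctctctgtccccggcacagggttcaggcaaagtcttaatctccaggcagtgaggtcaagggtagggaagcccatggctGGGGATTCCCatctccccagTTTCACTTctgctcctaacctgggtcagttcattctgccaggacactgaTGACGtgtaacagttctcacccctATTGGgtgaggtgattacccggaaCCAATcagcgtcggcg
B2m (chr2:122147437-122147686, plus strand): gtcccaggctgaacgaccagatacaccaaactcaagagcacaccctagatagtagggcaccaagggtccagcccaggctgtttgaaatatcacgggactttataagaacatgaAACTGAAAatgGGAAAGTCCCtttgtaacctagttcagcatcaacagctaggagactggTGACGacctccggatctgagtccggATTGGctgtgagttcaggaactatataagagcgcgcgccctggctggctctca
Tap1 (chr17:34187306-34187555, plus strand): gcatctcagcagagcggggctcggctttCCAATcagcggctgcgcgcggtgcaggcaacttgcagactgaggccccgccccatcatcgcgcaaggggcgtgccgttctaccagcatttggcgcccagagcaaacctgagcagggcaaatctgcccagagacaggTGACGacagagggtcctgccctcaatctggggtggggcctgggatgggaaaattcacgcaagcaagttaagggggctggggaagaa
Tapbp (chr17:33919228-33919477, plus strand): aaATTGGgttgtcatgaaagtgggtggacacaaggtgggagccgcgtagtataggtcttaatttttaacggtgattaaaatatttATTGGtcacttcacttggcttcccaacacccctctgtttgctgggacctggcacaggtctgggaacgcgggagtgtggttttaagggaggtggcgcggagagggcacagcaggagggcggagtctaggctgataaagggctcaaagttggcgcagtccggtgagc

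All 4 motifs stood in 1 window in 22 of the 27025 genes searched (0.0814%), and H2-K1, H2-D1, H2-Q7 and B2m were 4 of these 22. Each of the 3 heavy chain windows carried the same 10 letters GGGGATTCCC as its NF-kB-type match and the same TTTCACTT as its IRF match. Singly, the Y box was found in 7 of the 8 windows (37.5% of all genes), the IRF element in 5 (23.9%), the NF-kB-type site in 4 (4.71%) and the CRE half-site in 5 (19.8%). The window of H2-T23 held 2 IRF matches and 1 Y box, that of Tap1 a Y box and a CRE half-site, that of Tapbp 2 Y boxes, and that of Erap1 none of the 4. The 4 genes with all 4 motifs fell on stimulation in both genotypes, as described below. Of the genes with fewer motifs or none, H2-T23 and Tapbp fell too, and Tap1 and Erap1 were not called. A link between the motifs and the fall was not tested. A match describes letters in these windows only and was not tested for binding.

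The 12 libraries held 10665174 to 19005482 exon reads. Itgb2 stood between 387 and 465 TPM (reads per length of transcript, scaled to the same total in every library) in unstimulated CD18wt Tregs and between 229 and 257 in unstimulated CD18Foxp3 Tregs, and after stimulation between 329 and 331 against 131 to 202. Its groups therefore did not overlap in either state, with CD18Foxp3 lower, as for 6.48% of all genes unstimulated and 4.41% stimulated. Reads of the gene remained in every CD18Foxp3 library. By the study's design Cre removes a single exon, and the counts used here cover all exons of the gene. The study reports loss of CD18 protein on these cells by flow cytometry. The share of reads from the removed exon was not tested. The 4 Treg markers Foxp3, Il2ra, Ctla4 and Ikzf2 summed to 427 to 679 TPM in the 6 unstimulated libraries and 1585 to 3106 in the 6 stimulated ones. Markers of other cells were low beside H2-K1, H2-D1 and B2m but reached the levels of Tap1, Erap1 and Nlrc5. The myeloid markers Lyz2, Csf1r, Cd14 and S100a8 summed to at most 15.7 TPM. Cytotoxic markers (Cd8a, Cd8b1, Ncr1, Klrb1c and Nkg7) summed to 76.6 to 146 TPM with Ncr1 at 0 in all 12, and the class II genes H2-Aa, H2-Ab1, H2-Eb1 and Cd74 to 50.8 to 234.

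Replicate 1 of stimulated CD18Foxp3 Tregs stood apart in its base composition. Over 9340 genes the log2 ratio of this library to the other replicates of its group fell with the GC content of the transcripts (Spearman's rho −0.797, a description), whereas in the 9 libraries of the other groups rho lay between −0.179 and 0.156. H2-K1 (55.3% GC), H2-D1 (53.9%), H2-T23 (55.3%), H2-Q7 (54.9%), Tap1 (55.8%) and Tapbp (58.4%) were 0.73 to 1.01 lower in it on the log2(TPM + 1) scale. The median gap in the GC decile of the gene was 0.73 for Tapbp, the same as its own, but 0.37 or 0.51 for the other 5, which were lower than their deciles. For Tap2 (57.9% GC) the gap was 1.65, against 0.73 in its decile. The part of GC content in these gaps was not tested. B2m (41.2% GC) and Erap1 (41.6%) were instead higher in it, by 0.48 and 0.37. The fitted differences of the 10 genes and the counts of the other lists are therefore given with and without this library.

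**Figure D1:**
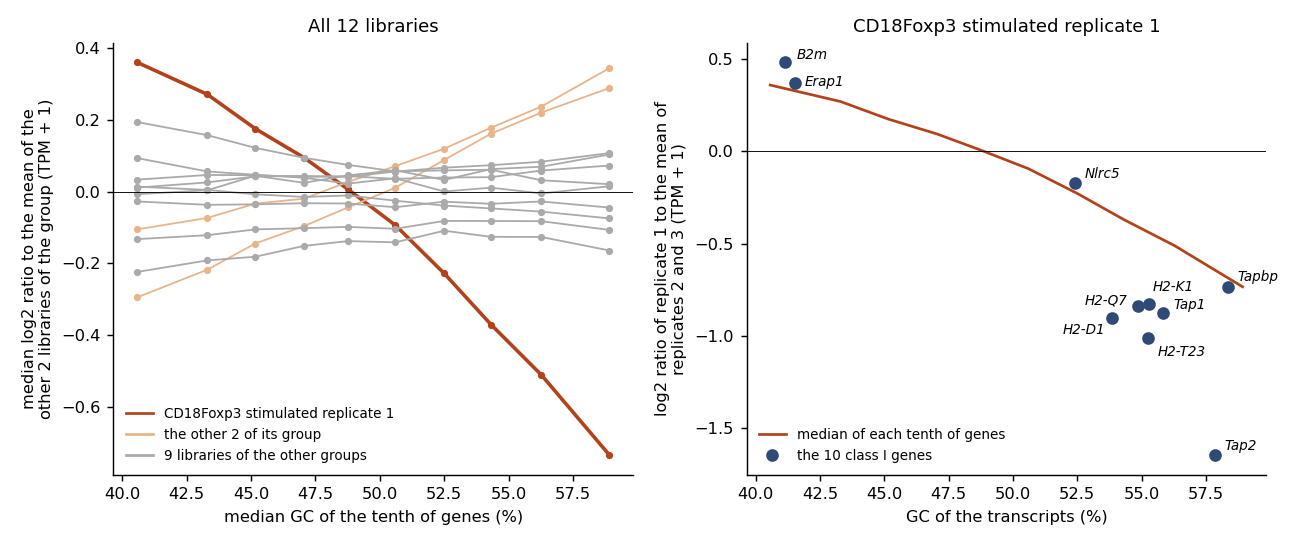
Left, the median log2 ratio of each library to the other libraries of its group (y axis, TPM + 1) in deciles of genes ordered by GC content (x axis, %). Right, the same ratio for CD18Foxp3 stimulated replicate 1 against replicates 2 and 3, with the 10 class I genes as points and the median of each decile of genes as a line. The median falls from 0.36 in the decile lowest in GC to −0.735 in the highest, and B2m and Erap1 lie above 0 while the other 8 genes lie below it.

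Levels are compared between genes as TPM, which is per length of transcript. B2m was by far the most abundant of the 10, with 10026 ± 1314 TPM in unstimulated CD18wt Tregs and 10981 ± 187 in unstimulated CD18Foxp3 Tregs (mean ± SD, n = 3 in each group here and below), and ranked between 8 and 11 among all genes in these 6 libraries. H2-K1 and H2-D1 followed with 4702 ± 14 and 3295 ± 173 TPM in unstimulated CD18wt Tregs. The non-classical genes H2-Q7, which encodes a Qa-2 molecule, and H2-T23, which encodes Qa-1, reached 639 ± 80.2 and 438 ± 33.3. Tapbp stood at 365 ± 26.6, Tap2 at 276 ± 48.3, Tap1 at 173 ± 5.95, Erap1 at 71.7 ± 1.99 and Nlrc5 at 57.6 ± 10.1 TPM. The order was the same in both genotypes without stimulation, and the ranges of neighbouring genes did not overlap except for Erap1 and Nlrc5 in CD18Foxp3 Tregs. After stimulation the lower part of the order was no longer separated, since the ranges of H2-T23, Tap2, Tapbp and Tap1 overlapped with those of neighbours in it and so did those of H2-K1 and H2-D1, of H2-Q7 and H2-T23 in CD18Foxp3 Tregs and of Erap1 and Nlrc5 in CD18wt Tregs. Together the 10 genes made up 2.00 ± 0.147% and 2.19 ± 0.0295% of all TPM in unstimulated CD18wt and CD18Foxp3 Tregs, and 1.19 ± 0.157% and 1.19 ± 0.0458% after stimulation.

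**Figure D2:**
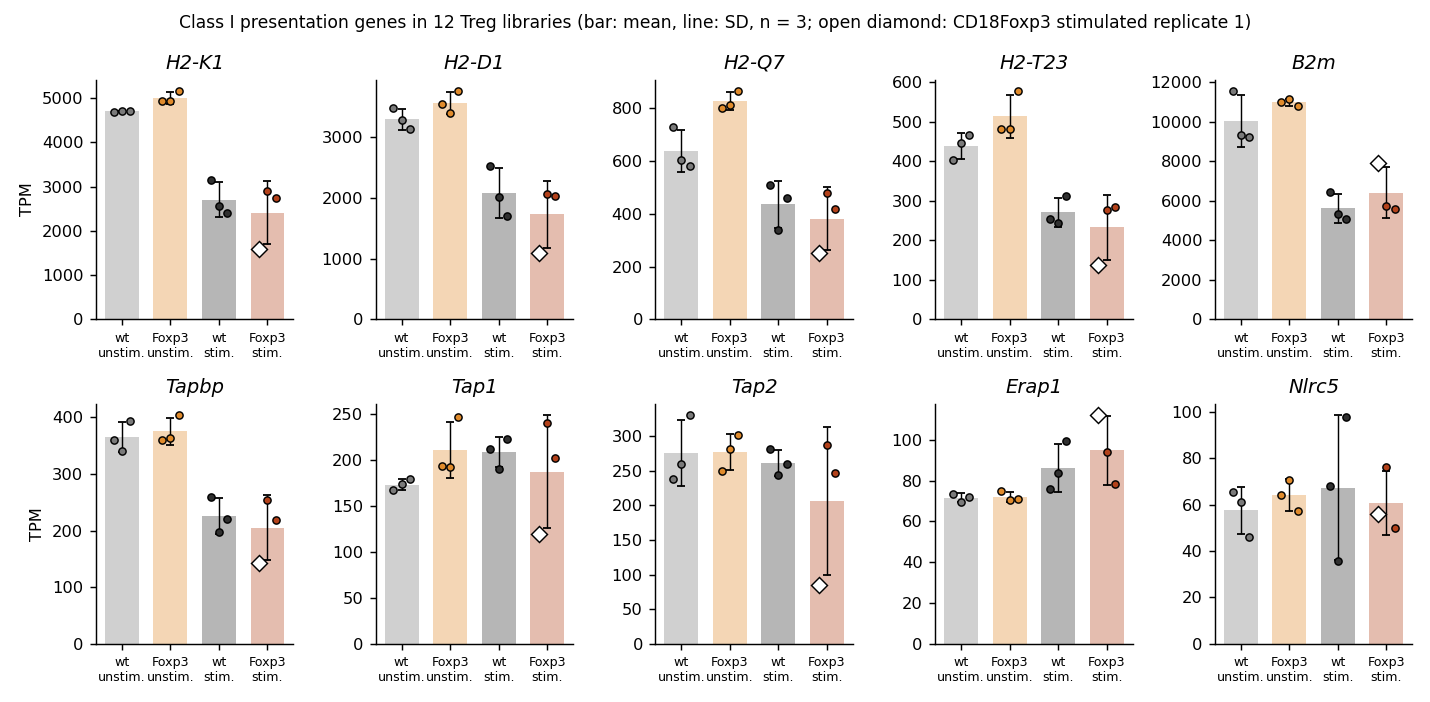
TPM (y axis, linear, from 0, a scale of its own for each gene) of the 10 class I genes in the 4 groups, with a point for each library, a bar for the mean and a line for the SD (n = 3); wt and Foxp3 stand for CD18wt and CD18Foxp3. The stimulated libraries of H2-K1, H2-D1, H2-T23, H2-Q7, B2m and Tapbp all sit below the unstimulated ones of the same genotype, while Erap1 sits slightly higher. The open diamond is CD18Foxp3 stimulated replicate 1, lowest of its group for H2-K1, H2-D1, H2-T23, H2-Q7, Tap1, Tap2 and Tapbp.

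Class I genes are alike in sequence, and this sets how well single rows can be read. All 10 genes were taken as deposited on GRCm38: H2-K1 (ENSMUSG00000061232, chr17:33996017-34000333), H2-D1 (ENSMUSG00000073411, chr17:35262730-35267499), H2-T23 (ENSMUSG00000067212, chr17:36029773-36032855), H2-Q7 (ENSMUSG00000060550, chr17:35439155-35443773), Tap1 (ENSMUSG00000037321, chr17:34187553-34197225), Tap2 (ENSMUSG00000024339, chr17:34203527-34216321) and Tapbp (ENSMUSG00000024308, chr17:33915899-33929292) lie together in the MHC region. B2m (ENSMUSG00000060802, chr2:122147686-122153083), Erap1 (ENSMUSG00000021583, chr13:74639568-74693201) and Nlrc5 (ENSMUSG00000074151, chr8:94434356-94527272) lie elsewhere. Reads were 59 bases long, and 22.6% of the 59-base words in H2-Q7 transcripts also occurred in another gene's transcripts, 12% in H2-Q10 and 7.11% in H2-Q5. Over the 12 libraries 66.7% of the reads of H2-Q7 were placed uniquely, against 97.4% for H2-K1, 88.5% for H2-D1, 91.2% for H2-T23 and 100% for B2m. The level of H2-Q7 is thus uncertain. Among the peptide supply genes, Tapbp shared 21.5% of its words, 19.3% with the overlapping gene model Gm19412, and Tap2 shared 10.4%, 8.25% with Gm15821, whereas Nlrc5 shared 0.232%.

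Stimulation lowered the heavy chains, the light chain and tapasin in both genotypes. H2-K1 stood at 4686, 4714 and 4705 TPM in the 3 unstimulated CD18wt libraries and at 3143, 2571 and 2395 in the stimulated ones. In CD18Foxp3 Tregs it stood at 4926, 4934 and 5156 before and at 1591, 2895 and 2746 after. The stimulated libraries were all lower than the unstimulated ones in both genotypes. By edgeR's quasi-likelihood test on exon reads, H2-K1 fell by 1.20 ± 0.16 on the log2 scale (SE) in CD18wt Tregs, to 0.435 of its level in scaled reads (adjusted p = 4.66e-05), and by 1.43 ± 0.19 in CD18Foxp3 Tregs (adjusted p = 0.000199). On log2(TPM + 1) the difference was smaller, at −0.81 in CD18wt and −1.10 in CD18Foxp3 Tregs. The median of all genes rose by 0.36 and 0.31 on that scale, so the size of a fall depends on the scale. In these bulk libraries fewer cells that express a gene and less of its RNA per cell cannot be told apart, and since TPM and CPM (reads scaled to library size) are shares of a library, the amount of RNA per cell was not measured.

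H2-D1, the other classical heavy chain, stood at 3475, 3279 and 3130 TPM in unstimulated and 2520, 2017 and 1706 in stimulated CD18wt libraries. In CD18Foxp3 libraries it went from 3546, 3405 and 3760 to 1097, 2065 and 2035. The groups did not overlap in either genotype, and the fall was 1.06 ± 0.17 (adjusted p = 0.000206, edgeR) and 1.42 ± 0.20 (adjusted p = 0.000331, edgeR) on the log2 scale. Its ratio to H2-K1 changed little, with H2-K1 at 1.43 and 1.40 times the TPM of H2-D1 in unstimulated CD18wt and CD18Foxp3 Tregs and at 1.31 and 1.40 times after stimulation.

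The non-classical heavy chains moved by similar amounts. H2-T23, whose product Qa-1 presents a leader peptide of other class I chains to CD94/NKG2 receptors, stood at 402, 446 and 467 TPM before and 254, 244 and 313 after stimulation in CD18wt Tregs. In CD18Foxp3 Tregs it stood at 481, 481 and 577 before and 138, 276 and 283 after. These libraries did not overlap either, and the fall was 1.11 ± 0.14 (adjusted p = 3.34e-05, edgeR) and 1.51 ± 0.23 (adjusted p = 0.000485, edgeR). For H2-Q7 the values were 730, 606 and 580 against 509, 338 and 462 TPM in CD18wt Tregs. The CD18Foxp3 values of H2-Q7 were 802, 811 and 865 against 250, 478 and 419. Again every stimulated library was below every unstimulated one of its genotype, and H2-Q7 fell by 0.96 ± 0.15 (adjusted p = 0.000209, edgeR) and 1.48 ± 0.20 (adjusted p = 0.000199, edgeR). On the TPM scale with limma, H2-Q7 in CD18wt Tregs no longer passed the threshold (adjusted p = 0.015). With the reads of all class I heavy chain genes summed into 1 row, which keeps reads shared between them together, the fall was 1.09 ± 0.16 in CD18wt (adjusted p = 8.86e-05, edgeR) and 1.41 ± 0.18 in CD18Foxp3 Tregs (adjusted p = 0.000195, edgeR).

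B2m, the light chain shared by all class I molecules, stood at 11541, 9321 and 9215 TPM in unstimulated and at 6431, 5313 and 5083 in stimulated CD18wt libraries. In CD18Foxp3 Tregs it stood at 10981, 11168 and 10794 before and at 7916, 5747 and 5578 after. The fall was 1.24 ± 0.16 (adjusted p = 3.9e-05, edgeR) and 1.14 ± 0.15 (adjusted p = 0.000221, edgeR), with no overlap between groups. The TPM of the 4 heavy chains together came to 0.913 ± 0.0935 and 0.903 ± 0.0504 times that of B2m in unstimulated CD18wt and CD18Foxp3 Tregs and to 0.977 ± 0.0202 and 0.788 ± 0.346 times after stimulation. The spread in the last group came from replicate 1, where the ratio was 0.389.

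Among the genes that supply and load peptides, Tapbp alone passed the threshold. Tapbp, which bridges the transporter and the heavy chain, stood at 360.4, 341 and 394 TPM before and 260, 198 and 220.3 after stimulation in CD18wt Tregs. In CD18Foxp3 Tregs the values were 360.6, 363 and 403 against 142, 254 and 219. The stimulated libraries were lower without overlap, and the fall was 1.10 ± 0.14 (adjusted p = 4e-05, edgeR) and 1.24 ± 0.18 (adjusted p = 0.000337, edgeR).

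The transporter subunits gave smaller values. Tap1 stood at 167, 174 and 179 TPM in unstimulated and 212, 191 and 223 in stimulated CD18wt libraries. In CD18Foxp3 libraries it stood at 194, 192 and 247 against 120.0, 240.2 and 202. On TPM the stimulated CD18wt libraries were thus the higher ones, while the log2 difference from the exon reads was −0.14 ± 0.13 (adjusted p = 0.396, edgeR) in CD18wt and −0.54 ± 0.21 (adjusted p = 0.0535, edgeR) in CD18Foxp3 Tregs. The input, the scaling and the tool differ together between these values, and the cause of the change of sign was not tested. On log2(TPM + 1) the median of all genes itself moved by 0.36 in CD18wt and 0.31 in CD18Foxp3 Tregs with stimulation, against 0.02 and 0.01 with the TMM scaling of the reads, so that the 0.26 of Tap1 on the TPM scale was also below the median gene.

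Tap2 stood at 238, 259 and 330 TPM before and 281, 243 and 259 after stimulation in CD18wt Tregs. In CD18Foxp3 Tregs it stood at 250, 281 and 301 before and at 84.5, 288 and 246 after. The groups overlapped in both genotypes. The log2 difference was −0.49 ± 0.16 (adjusted p = 0.0226, edgeR) in CD18wt and −0.80 ± 0.35 (adjusted p = 0.0736, edgeR) in CD18Foxp3 Tregs, where replicate 1 lay far below its 2 group mates.

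Erap1, which trims peptides to the length that class I molecules bind, stood at 73.5, 69.6 and 72.1 TPM before and 76.1, 83.8 and 99.3 after stimulation in CD18wt Tregs. In CD18Foxp3 Tregs the values were 75.0, 70.4 and 71.1 against 112, 94.1 and 78.5. The stimulated libraries were higher on TPM in both genotypes. On the exon reads the difference was −0.13 ± 0.13 (adjusted p = 0.434, edgeR) and 0.03 ± 0.14 (adjusted p = 0.865, edgeR), and on the TPM scale in CD18wt Tregs it was 0.26, again below the median gene of 0.36. In CD18Foxp3 Tregs the TPM difference was 0.37, above the median gene of 0.31.

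Nlrc5, the class I transactivator, stood at 65.4, 61.1 and 46.2 TPM in unstimulated and 68.2, 35.6 and 97.9 in stimulated CD18wt libraries. In CD18Foxp3 libraries it stood at 64.2, 70.8 and 57.2 against 55.9, 76.3 and 50.1. The stimulated CD18wt libraries spread the most of any group and enclosed all the unstimulated ones. The log2 difference was −0.20 ± 0.29 (adjusted p = 0.604, edgeR) in CD18wt and −0.45 ± 0.16 (adjusted p = 0.0403, edgeR) in CD18Foxp3 Tregs, so Nlrc5 did not pass the threshold in either.

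In all, 6 of the 10 genes were past the threshold (fold change of at least 1.5 and adjusted p of at most 0.01) and lower after stimulation in CD18wt Tregs, where 14.9% of all genes tested were lower, and 6 of 10 in CD18Foxp3 Tregs, where 17.6% were lower. None of the 10 was called higher in either genotype by edgeR, against 18.7% and 20.9% of all genes. The median log2 difference of the 10 on exon reads was −1.01 in CD18wt and −1.19 in CD18Foxp3 Tregs. On log2(TPM + 1) the 6 called genes lay between −0.84 (B2m) and −0.56 (H2-Q7) in CD18wt Tregs. In CD18Foxp3 Tregs they lay between −1.21 (H2-T23) and −0.79 (B2m). On TPM, where 12.9% and 17.3% of genes had all stimulated libraries below the unstimulated ones, the same held for 6 of the 10 genes in each genotype. All stimulated libraries were above the unstimulated ones for Tap1 and Erap1 in CD18wt Tregs and for Erap1 in CD18Foxp3 Tregs, as for 41.5% and 42.3% of all genes. With 3 libraries against 3 the exact permutation test cannot go below p = 0.1, which is the value each of these 6 genes reached in both genotypes.

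Without CD18Foxp3 stimulated replicate 1 the same 6 genes were called in CD18Foxp3 Tregs. Their log2 differences were then −1.23 for H2-K1, −1.20 for H2-D1, −1.27 for H2-T23, −1.28 for H2-Q7, −1.36 for B2m and −1.07 for Tapbp. The fall of the summed heavy chains was 1.21 on the log2 scale. Tap2 changed to −0.45 with an adjusted p of 0.000607 by edgeR, which is under the 1.5-fold limit, and Tap1 to −0.33 (adjusted p = 0.0162, edgeR). Erap1 stood at −0.15 and Nlrc5 at −0.43, neither called.

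Markers of other cells moved with stimulation too. The class II genes summed to 115 to 234 TPM in unstimulated and 50.8 to 195 in stimulated libraries, the myeloid markers to 1.19 to 15.7 and 0.443 to 1.74 and the cytotoxic markers to 76.6 to 138 and 91.4 to 146, with overlap in each case. Of the 3 cytotoxic markers tested, Cd8b1 (−1.08 and −0.76) and Klrb1c fell in both genotypes and Nkg7 was not called. Lyz2, the only myeloid marker tested in CD18wt Tregs, fell there (−3.56). Of the 4 class II genes 0 were called in CD18wt Tregs (median 0.29). In CD18Foxp3 Tregs 1 of the 4 was called, H2-Aa (−2.42, with a list median of −0.81). The B cell receptor gene Cd79b fell in both genotypes (−1.48 and −1.81), by edgeR. Without the library that stood apart no class II gene was called in CD18Foxp3 Tregs, and Cd79b, Cd8b1 and Klrb1c still were. These levels are small beside the TPM of H2-K1, H2-D1 and B2m, and their part in the differences of the less abundant genes was not tested.

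**Figure D3:**
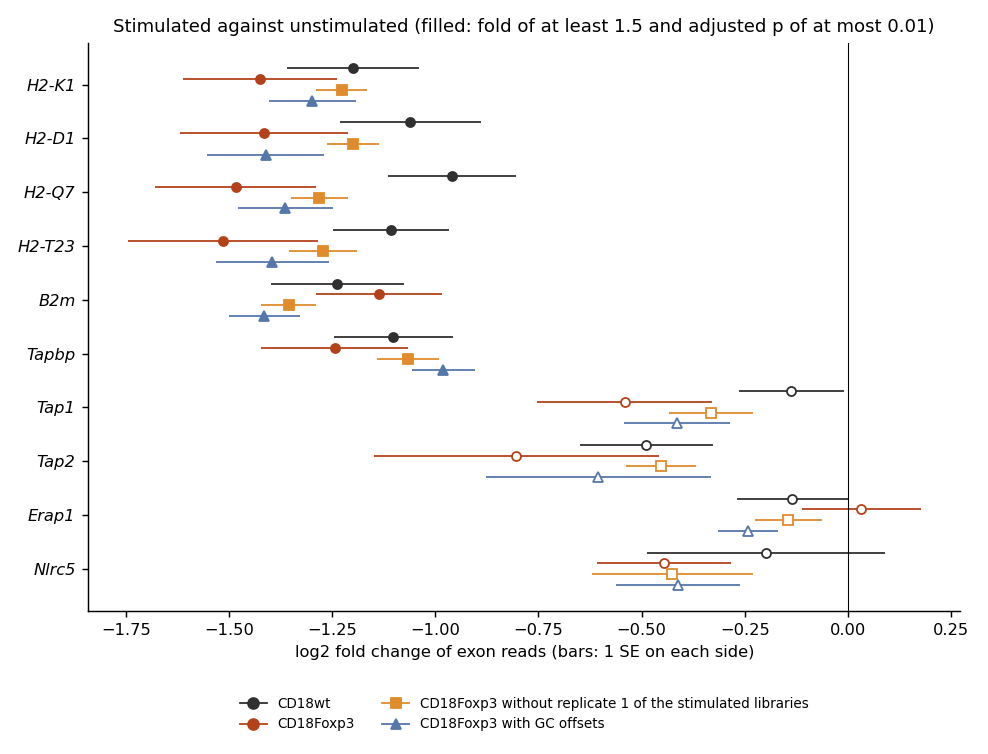
Log2 fold change of exon reads, stimulated against unstimulated (x axis), for the 10 class I genes (y axis) in CD18wt Tregs, in CD18Foxp3 Tregs, in CD18Foxp3 Tregs without stimulated replicate 1 and in CD18Foxp3 Tregs with offsets for GC content. Bars give 1 SE on each side and filled symbols passed the threshold. H2-K1, H2-D1, H2-T23, H2-Q7, B2m and Tapbp are filled in all 4 series, between −0.96 and −1.51, and Tap1, Tap2, Erap1 and Nlrc5 are open in all 4.

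Loss of CD18 left the 10 genes without a called difference. In unstimulated Tregs 0 of 10 passed the threshold with edgeR, where 16 of 11829 genes did (0.135%), 1134 genes had an unadjusted p under 0.05 and DESeq2 called 86. The gene closest to a difference was H2-Q7, at 730, 606 and 580 TPM in CD18wt and 802, 811 and 865 in CD18Foxp3 libraries. All CD18Foxp3 libraries were higher, and the log2 difference was 0.35 with a 95% interval of 0.13 to 0.56 (unadjusted p = 0.00425, adjusted p = 0.218, edgeR). Its adjusted p ran from 0.0191 to 0.966 over the alternative settings. With the reads of all class I heavy chain genes summed into 1 row, the log2 difference was 0.109 ± 0.095 (SE, adjusted p = 0.791, edgeR). Tap1 was higher by 0.25 (interval 0.03 to 0.48, adjusted p = 0.43, edgeR) and H2-T23 by 0.20 (interval −0.03 to 0.42, adjusted p = 0.588, edgeR).

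H2-K1, H2-T23, H2-Q7 and Tap1 had all 3 unstimulated CD18Foxp3 libraries above all 3 CD18wt libraries on TPM, which is 4 of 10 genes against 8.39% of all genes. For H2-K1 the log2 difference was only 0.06. The remaining values were 0.14 for Nlrc5, 0.11 for B2m, 0.09 for H2-D1, 0.01 for Tapbp, −0.02 for Erap1 and −0.02 for Tap2. The median of the 10 was 0.10, beside a median of 0.00 over all genes tested. The 4 heavy chains together stood at 9631 to 10359 TPM in unstimulated CD18Foxp3 against 8881 to 9293 in unstimulated CD18wt Tregs. Some of the other lists also differed without overlap in unstimulated Tregs. In CD18Foxp3 Tregs the class II genes summed to 155 to 234 TPM against 115 to 131 in CD18wt Tregs. The cytotoxic markers summed to 93.0 to 138 against 76.6 to 92.8, the interferon targets to 979 to 1179 against 765 to 875 and the class I promoter factors to 724 to 750 against 633 to 720. The cytosolic peptidases went the other way, with 167 to 171 TPM in CD18Foxp3 against 180 to 190 in CD18wt Tregs. The sums of the other heavy chains, loading chaperones, immunoproteasome, constitutive catalytic subunits and interferon signalling genes overlapped. So did those of the class I-like genes, the activation genes and the Treg, T cell and myeloid markers. How often such sums separate when nothing differs was not tested. The part of the lists without overlap in the values of the 10 genes was not tested either.

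In stimulated Tregs 0 of the 10 genes passed, as did 0 of 11930 genes (0%) with edgeR, although 583 genes had an unadjusted p under 0.05 and DESeq2 called 22. Itgb2, the deleted gene, was itself not called there (log2 difference −0.94, and −0.79 without CD18Foxp3 stimulated replicate 1). In unstimulated Tregs Itgb2 was called lower (−0.85). A missing call in stimulated Tregs therefore does not show that a gene was unchanged. Each of the 10 had an adjusted p of 0.998 by edgeR, and none had groups without overlap on TPM, against 9.58% of all genes. The log2 differences ran from −0.34 for Tap2 to 0.21 for B2m, with H2-K1 at −0.16, H2-D1 at −0.26, H2-T23 at −0.21 and H2-Q7 at −0.18. These values followed the library that stood apart. Without CD18Foxp3 stimulated replicate 1, Tap2 stood at 0.03, B2m at 0.01, H2-K1 at 0.05, H2-D1 at −0.03, H2-T23 at 0.05 and H2-Q7 at 0.04. Tapbp moved from −0.13 to 0.06, Tap1 from −0.15 to 0.08, Erap1 from 0.15 to −0.01 and Nlrc5 from −0.11 to −0.07.

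The interaction of genotype and stimulation, fitted over all 12 libraries, also called 0 of the 10 genes and 0 of 12636 genes (0%) with edgeR, where 485 genes had an unadjusted p under 0.05 and DESeq2 called 1. The largest estimate among the 10 was that of H2-Q7, whose fall on stimulation was greater in CD18Foxp3 Tregs by 0.53 on the log2 scale (interval −1.07 to 0.02, unadjusted p = 0.0581, adjusted p = 0.988, edgeR). Without the library that stood apart it was −0.31, and the other 9 genes lay between −0.21 (Nlrc5) and 0.05 (Tapbp). With it, the interaction estimate was −0.23 for H2-K1, −0.36 for H2-D1, −0.41 for H2-T23, 0.09 for B2m, −0.15 for Tapbp, −0.41 for Tap1, −0.32 for Tap2, 0.16 for Erap1 and −0.25 for Nlrc5.

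**Figure D4:**
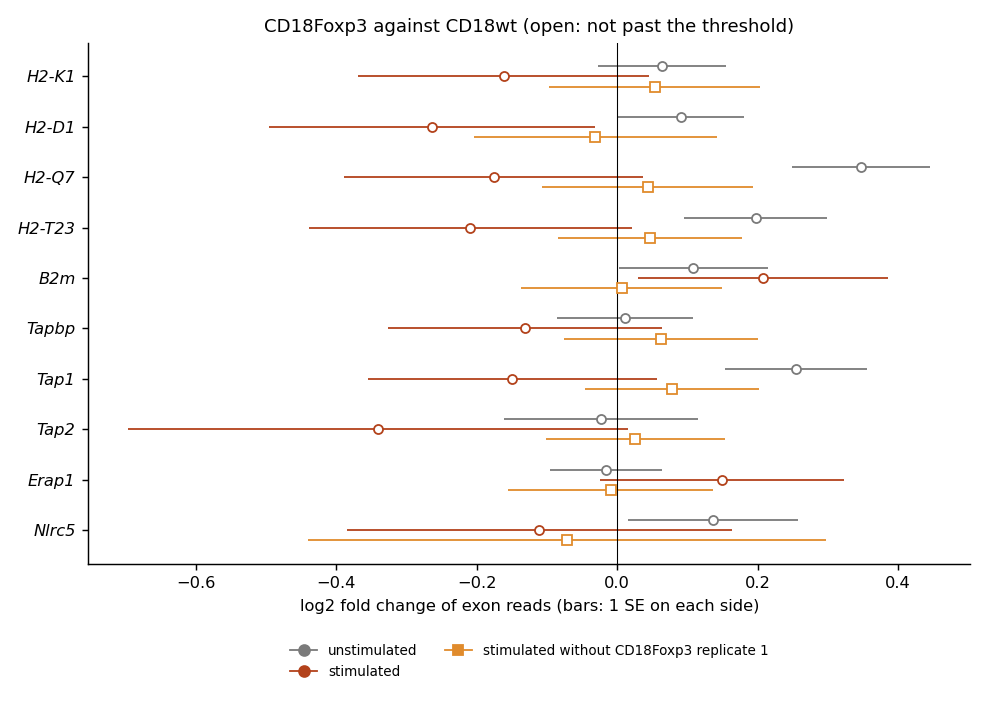
Log2 fold change of exon reads, CD18Foxp3 against CD18wt (x axis), for the 10 class I genes (y axis) in unstimulated Tregs, in stimulated Tregs and in stimulated Tregs without CD18Foxp3 replicate 1. Bars give 1 SE on each side and open symbols did not pass the threshold. No gene is past it, H2-Q7 lies farthest to the right at 0.35 in unstimulated Tregs, and without replicate 1 the stimulated values lie between −0.07 and 0.08.

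The rest of the pathway moved in more than 1 direction with stimulation. The counts below stand beside 14.9% of all genes lower and 18.7% higher in CD18wt and 17.6% lower and 20.9% higher in CD18Foxp3 Tregs. Of 15 further class I heavy chain genes with a row, 10 were tested, and 6 fell in CD18wt and 7 in CD18Foxp3 Tregs with none higher (median −1.02 and −1.45). H2-Q2 changed by −2.54 and −2.46, H2-T24 by −1.92 and −1.60 and H2-M3, which presents formylated peptides, by −1.42 and −1.66. Both class I-like genes fell, with Cd1d1, which presents lipids to NKT cells, at −2.47 and −2.43 and Mr1, which presents vitamin B metabolites to MAIT cells, at −1.24 and −0.89 in CD18wt and CD18Foxp3 Tregs.

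Of 5 immunoproteasome genes, which form or regulate the interferon-inducible proteasome, 2 fell in each genotype and none rose (median −0.47 and −0.55). These were the catalytic subunits Psmb10 (−1.04 and −1.43) and Psmb9 (−0.85 and −1.03). On TPM all 5 together stood at 1694 ± 268 before and 1819 ± 128 after stimulation in CD18wt Tregs. That scale is unlike the one of the reads, since the median gene rose by 0.36 on log2(TPM + 1) in CD18wt Tregs. Psme2, 1 of the 5, had 30.9% of its reads placed uniquely. Of the 3 constitutive catalytic subunits, 3 rose in CD18wt and 2 in CD18Foxp3 Tregs, with Psmb7 at 0.79 and 0.78 and Psmb6 at 0.66 and 0.59, and Psmb5 called in CD18wt Tregs at 0.84 but not in CD18Foxp3 Tregs at 0.78. Of 6 cytosolic peptidases, 3 rose in CD18wt and 4 in CD18Foxp3 Tregs (median 0.60 and 0.82), led by Thop1, an oligopeptidase, at 3.27 and 3.14 and by Lap3, a leucine aminopeptidase, at 1.78 and 2.12. Of 5 loading chaperones none was called in CD18wt Tregs, and Canx and Calr, which fold glycoproteins including heavy chains, rose by 0.70 and 0.60 in CD18Foxp3 Tregs.

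Of 12 promoter factors, 2 fell in CD18wt and 3 in CD18Foxp3 Tregs and none rose (median −0.07 and −0.21). Irf2 changed by −0.79 and −0.82 and the RFX subunit Rfxank by −0.75 and −0.93, while Rfxap was called in CD18Foxp3 Tregs at −0.84. Of 11 interferon signalling genes, 6 fell and 1 rose in CD18wt and 5 fell and 1 rose in CD18Foxp3 Tregs. Irf9 stood at −1.29 and −1.22, Jak1 at −1.21 and −1.22 and the receptor chain Ifnar2 at −1.01 and −1.08, and the gene that rose was Socs1, an inhibitor of JAK kinases, at 1.66 and 1.94. Of 10 interferon targets 7 fell in each genotype (median −1.98 and −2.25), with Ifit3 at −3.68 and −3.48, Isg15 at −3.56 and −2.93 and Ifit1 at −3.35 and −3.12. Gbp2, a target of interferon gamma, rose by 1.05 in CD18wt Tregs. On TPM the 10 targets together did not fall. They summed to 765 to 875 before and 1035 to 1515 after stimulation in CD18wt Tregs, and to 979 to 1179 and 996 to 1407 in CD18Foxp3 Tregs. Over the 12 libraries Igtp and Gbp2 held 67790 and 55078 reads, against 1743 for Ifit3 (48.8% placed uniquely) and 2432 for Isg15. Without CD18Foxp3 stimulated replicate 1, where 18.8% of all genes were lower and 20.9% higher in CD18Foxp3 Tregs, the counts stayed at 7 lower for the other heavy chains and the interferon targets, 2 lower for the class I-like and the immunoproteasome genes and 2 higher for the chaperones. All 3 constitutive catalytic subunits then rose, Psmb5 by 1.02. Of the peptidases 3 rose and Lnpep fell, of the promoter factors 3 fell and Nfkb1 rose, and of the interferon signalling genes 7 fell and Socs1 rose. Between genotypes no gene of these lists was called in either state, with or without this library.

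**Figure D5:**
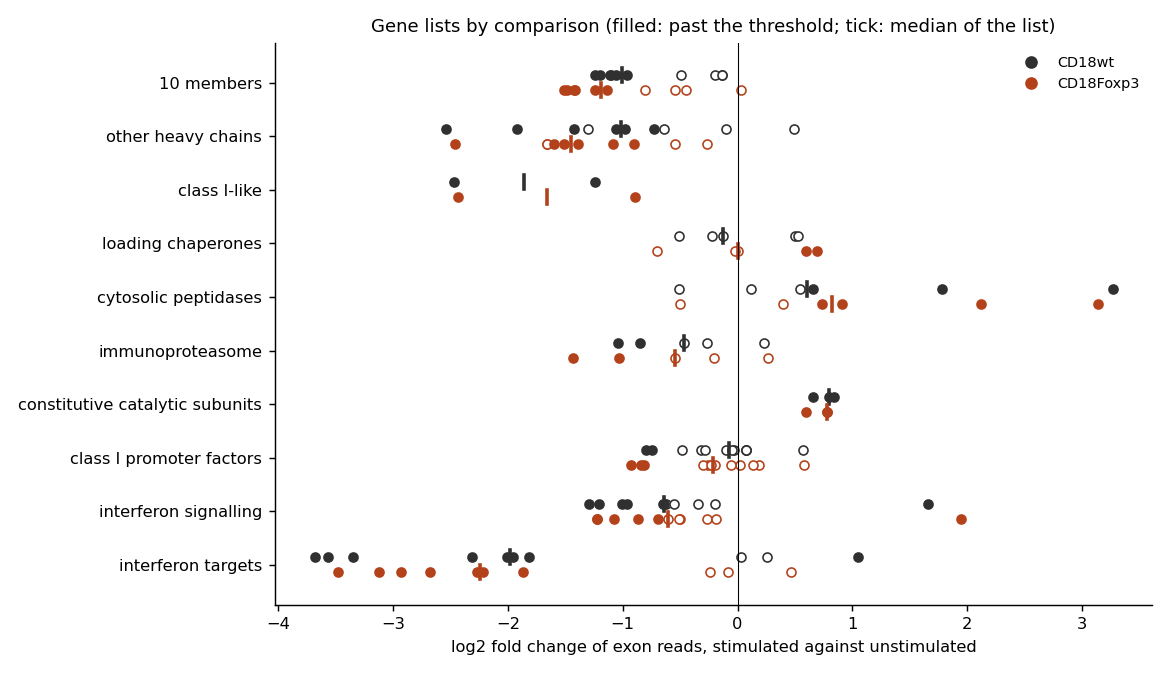
Log2 fold change of exon reads, stimulated against unstimulated (x axis), for the genes of each list (y axis) in CD18wt and CD18Foxp3 Tregs, with filled points past the threshold and a tick at the median of the list. The 10 class I genes and the other heavy chains have medians between −1.01 and −1.45, the interferon targets between −1.98 and −2.25, and the constitutive catalytic subunits lie right of 0.

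The stimulation itself was seen in activation genes. Of Mki67, Tnfrsf9, Tnfrsf4, Myc and Nr4a1, all but Nr4a1 rose in CD18wt and 5 of 5 in CD18Foxp3 Tregs, with Mki67, a marker of cycling cells, at 3.07 and 2.87. Of the 4 Treg markers, Il2ra rose in both genotypes by 2.27 and 3.13, and Ctla4 (1.94) and Ikzf2 (0.90) in CD18Foxp3 Tregs, where without the library that stood apart all 4 rose. Cd4 (−1.15 and −1.25) and Cd3e (−0.87 and −0.92), which are surface proteins of all these cells, fell in both genotypes by amounts near those of the class I genes.

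Over the 12 libraries the genes whose log2 CPM followed the mean of the 10 class I genes most closely were Arrb2 (Pearson r = 0.991), Rgs14 (0.990), the class I gene H2-M3 (0.990), Dlgap4 (0.987) and 2810001G20Rik (0.985), out of 12626 genes compared. These coefficients describe libraries that share their stimulation state and, for CD18Foxp3 stimulated replicate 1, a base composition, and the GC content of the 5 genes was 48.1% to 58.4%. H2-M3 stood at 105 ± 6.60 and 116 ± 9.17 TPM in unstimulated CD18wt and CD18Foxp3 Tregs and at 51.8 ± 3.44 and 47.6 ± 13.3 after stimulation.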

How the data were processed

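RNA of 12 Treg libraries was sequenced as single 59-base reads after poly(A) selection. Per the labels, reads were mapped with CLC Genomics Workbench to GRCm38, and the authors deposited, per library, exon and intron read counts and TPM for each gene. Tables were read as deposited, and TPM were used for levels. Total exon counts were tested with edgeR 4.0.16 in R 4.3.3 (filterByExpr with a minimum count of 10, TMM, quasi-likelihood test, Benjamini-Hochberg adjustment over all genes tested), each comparison on its 6 libraries and the interaction on all 12. The threshold for a call was a change of 1.5-fold or more together with an adjusted p no larger than 0.01. Intervals are 95% t intervals. DESeq2 1.42.0, and limma 3.58.1 on log2 TPM with a pseudocount of 1 or 0.1, were alternatives, with other filters, a replicate block, leaving out each library and, added after the data were seen, offsets over 20 GC bins. The script was tested on simulated counts for stimulation in CD18wt Tregs and for genotype in unstimulated Tregs. All genes had the same dispersion and no GC trend there, unlike the real libraries. Of 100 genes changed 2-fold it recovered 94 and 92, with 2 and 3 false calls. The other comparisons were not simulated. GC content was available for 99.94% of genes. All 10 members are named in each comparison, and of every other list up to 4 called genes with the largest change. The members and lists were chosen with earlier results of these data known. Replicates of a group correlated at 0.963 to 0.983 (log2 CPM) and were all kept. The summed B cell marker list is not reported here.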

Additional observations from a re-analysis of the deposited data

Results flagged for a closer look

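Intron reads, which no comparison above uses, were higher relative to exon reads in stimulated Tregs for 3 of the class I genes. Tap1 had 2.18% of its exon and intron reads in introns on average over the 6 stimulated libraries (range 1.31 to 3.32%) against 0.732% over the 6 unstimulated ones (0.525 to 0.946%). For Tapbp the share was 4.05% (2.51 to 5.18%) against 1.20% (0.549 to 1.77%). For Nlrc5 it was 18.6% (16.4 to 20.8%) against 12.9% (10.6 to 14.9%). In each of these 3 genes every stimulated library was above every unstimulated one, and none of the 9 members with intron reads in every library (all but H2-T23) was lower throughout. Of 7813 genes with at least 10 exon reads and 1 intron read in every library, 10.4% were higher and 3.06% lower throughout, and the median gene moved from 5.94% to 7.24%. No test was run on these shares.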

How the results depend on the processing

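The 6 members called on stimulation in each genotype were called in every alternative except H2-Q7 in CD18wt Tregs with limma on TPM at either pseudocount (5 members), and with no filter Tap2 was also called in CD18Foxp3 Tregs (log2 difference −0.79, adjusted p = 1.61e-08 by edgeR; 7 members). Genotype and interaction called 0 members throughout. Counts of all genes moved more. For genotype in unstimulated Tregs 16 genes became 86 with DESeq2, 134 with no filter, 1 and 5 with limma at pseudocounts of 1 and 0.1, 41 with the replicate block, 0 over all 12 libraries, 33 at an adjusted p of 0.05 and 0 to 44 without 1 library. In stimulated Tregs 0 became 22, 61, 1 (limma at 0.1), 1 (block) and 0 to 2, and for the interaction 0 became 1 with DESeq2, 31 with no filter and 1 and 1 with limma. On log2(TPM + 1) the calls on stimulation split into 3589 higher and 858 lower in CD18wt Tregs (2234 and 1779 by edgeR on reads) and 3783 and 1201 in CD18Foxp3 Tregs (2516 and 2120). The cause was not tested.

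Small values changed sign. With limma at pseudocounts of 1 and 0.1, the stimulation difference in CD18wt Tregs was 0.2648 and 0.2661 for Tap1, 0.2565 and 0.2593 for Erap1 and 0.1221 and 0.1223 for Nlrc5, and the unstimulated genotype difference 0.0194 and 0.0195 for Tap2 and 0.008661 and 0.008767 for Erap1. With GC offsets the genotype difference was 0.02685 for Erap1 and −0.02512 for Tapbp unstimulated and 0.03595 for Tapbp stimulated, the stimulation difference of Erap1 in CD18Foxp3 Tregs −0.2424 (−0.2433 with the block) and the interaction −0.05209 for B2m and 0.1092 for Tapbp. Leaving out 1 library at a time gave, for genotype in unstimulated Tregs, −0.05262 to 0.1084 for Tapbp, −0.1323 to 0.1689 for Tap2 and −0.05539 to 0.02389 for Erap1. In stimulated Tregs it gave −0.383 to 0.2175 for Nlrc5, −0.2861 to 0.05354 for H2-K1, −0.3857 to 0.04718 for H2-T23, −0.3394 to 0.04323 for H2-Q7, −0.3381 to 0.07774 for Tap1, −0.6292 to 0.026 for Tap2, −0.2864 to 0.06299 for Tapbp, −0.009444 to 0.2667 for Erap1 and −0.3375 to 0.003481 for the summed heavy chains. On stimulation it gave −0.5446 to 0.04371 for Nlrc5 in CD18wt and −0.145 to 0.1419 for Erap1 in CD18Foxp3 Tregs, and for the interaction −0.103 to 0.1802 for B2m, −0.5031 to 0.07536 for Nlrc5, −0.6143 to 0.04945 for Tap2 and −0.311 to 0.05115 for Tapbp.

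The replicate numbers were not taken to pair libraries. To look for pairing, each gene's log2 CPM was taken as a deviation from its group mean, and these deviations were correlated between libraries. For same-numbered stimulated and unstimulated libraries, r of the deviations was 0.0958, −0.0195 and −0.0945 in CD18wt and 0.135, 0.0696 and 0.147 in CD18Foxp3 Tregs. In CD18Foxp3 Tregs the deviations of each library correlated best with those of its own number. Between genotypes the same numbers gave −0.132 to 0.0847. With the replicate block 3588 and 4899 genes were called on stimulation in CD18wt and CD18Foxp3 Tregs, and the members called stayed 6, 6, 0, 0 and 0. With 3 libraries a group, genotype differences smaller than the intervals above cannot be told from 0. The limma fit was not run for the summed heavy chains.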
